A study of Mus musculus with 18 samples.

Results

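The genes described here are the mouse potassium channel genes, taken as every symbol that starts with Kcn, goes on with 1 to 4 lower-case letters and ends in a number. The rule found 92 genes among the 57180 gene identifiers of the count table, and 80 of them had enough counts to be tested, out of 16738 genes tested in all. The remaining 12, Kcna7, Kcna10, Kcne1, Kcne3, Kcnj1, Kcnj15, Kcnk7, Kcnk15, Kcnk16, Kcnk18, Kcnmb3 and Kcnv2, held 0 to 77 counts each over 18 libraries together. The rule takes in pore-forming subunits as well as the auxiliary subunits that carry a Kcn name. It used symbols and the amount of counts, and no difference between groups.

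The study set 3 groups of adolescent male C57BL/6J mice side by side, with 6 wild-type mice in each. Exercised mice were put through CSDS (chronic social defeat stress, a resident and intruder model of repeated defeat by an aggressive mouse) and had aerobic training that began 1 week before the stress and lasted through it. CSDS mice had the same stress with no training, and control mice had neither, so training without stress is not among the groups. Each library was made from poly(A) RNA of the hippocampus of 1 mouse, so neurons, glia, vessels and any adjoining tissue were measured together; a lower level in such bulk tissue cannot be told apart from fewer cells that make the transcript. The groups are called exercised, CSDS and control below.

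Potassium channels let potassium leave or enter the cell and so set the resting potential, the shape of the action potential and the interval to the next one. Pore-forming subunits of voltage-gated, calcium-activated, inward-rectifier and 2-pore families share a selectivity filter, the short stretch of the pore loop that coordinates potassium ions. Auxiliary subunits bind the pore-forming proteins and alter their gating or transport to the membrane. In hippocampal neurons, A-type current through Kv4 channels limits dendritic excitation, the M-current through Kv7 channels restrains repeated firing, and calcium-activated SK and BK channels shape the after-hyperpolarization.

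The coding sequences show both what these genes share and where they differ. The potassium channel signature, a run of 15 coding bases for the selectivity filter, was looked for on the coding strand in the longest annotated coding sequence of each gene, and 77 of 92 genes held it at least once. The 15 without it were the auxiliary families, and 12 genes, all of the 2-pore family, held it 2 times. The stretches below are 45 coding bases each from GENCODE M21 transcripts on GRCm38, with the signature codons in capitals. They are picked examples from genes with lower and with higher GC content over the third bases of the coding sequence. The fold changes followed the GC content of whole transcripts, as described below. The first 3 come from genes whose fitted level was higher in exercised than in CSDS mice and the last 3 from genes whose fitted level was lower.
Kcnb2, chr1:15710031-15710075, plus strand: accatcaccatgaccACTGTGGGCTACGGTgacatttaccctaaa
Kcnma1, chr14:23528398-23528442, minus strand: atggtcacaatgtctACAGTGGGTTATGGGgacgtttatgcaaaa
Kcna4, chr2:107296480-107296524, plus strand: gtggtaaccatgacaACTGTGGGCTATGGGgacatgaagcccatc
Kcnc4, chr3:107447784-107447828, minus strand: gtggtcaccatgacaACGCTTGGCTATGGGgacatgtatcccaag
Kcnn1, chr8:70850642-70850686, minus strand: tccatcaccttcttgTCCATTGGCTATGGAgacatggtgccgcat
Kcnj14, chr7:45819618-45819662, minus strand: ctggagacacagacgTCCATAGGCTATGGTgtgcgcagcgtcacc
Within these stretches GC content was 48.9% in Kcnb2, 42.2% in Kcnma1 and 53.3% in Kcna4, against 53.3% in Kcnc4, 51.1% in Kcnn1 and 60.0% in Kcnj14. The stretches themselves thus overlapped in GC content. Over the third bases of the whole coding sequence, where most changes leave the protein as it is, GC content was 57.1% in Kcnb2, 60.9% in Kcnma1 and 57.5% in Kcna4, against 71.8% in Kcnc4, 73.3% in Kcnn1 and 67.1% in Kcnj14.

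Libraries held 18911080 to 24136591 counts. Levels are given as CPM, counts scaled to library size with TMM factors, and between genes as CPM per kilobase of the longest coding transcript, since the isoform in use is not known. Hippocampal markers were present throughout. The summed CA1 pyramidal cell markers were at 353, 559 and 785 CPM in exercised mice, against 550, 777 and 968 CPM in CSDS mice. Of 6 CA1 markers 5 were lower, and 1 of 6 had an unadjusted p under 0.05. The fitted level of 8 of 8 thalamic markers was higher, 5 of them under that p. Their summed medians were close, at 142 CPM in exercised and 130 CPM in CSDS mice, and the highest exercised value came from mouse 6 alone. Of 8 GABAergic interneuron markers 3 were higher, and 3 of 8 were under that p, as were 15.6% of all genes. The part of these shifts in the channel differences was not tested. Single libraries also stood apart. Control mouse 2 had a summed level of 701 CPM for the neocortical markers and 299 CPM for the dentate granule cell markers, where the other 17 libraries held 238 to 366 CPM and 491 to 851 CPM. Exercised mouse 6 had 973 CPM of thalamic markers and control mouse 3 had 659 CPM, where the CSDS mice had 107 to 163 CPM. Several results that rest on control mouse 2 or exercised mouse 6 are given with and without that mouse. No value of a single gene is given without control mouse 3.

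All 80 genes together made up 0.564% of the CPM. Kcnab2, a cytoplasmic beta subunit of Kv1 channels, had the highest level per length at 287 CPM per kilobase. It was followed by Kcnip2, a calcium-binding partner of Kv4 channels, at 78.9 CPM per kilobase among the genes named here. Kcnk1, a 2-pore leak channel, had 40.0 CPM per kilobase and Kcnj10, an inward rectifier of glia, had 37.0 CPM per kilobase, a gap smaller than the spread of either gene over mice. The median gene had 7.34 CPM per kilobase and Kcnh8 had the lowest level at 0.138 CPM per kilobase.

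**Figure D1:**
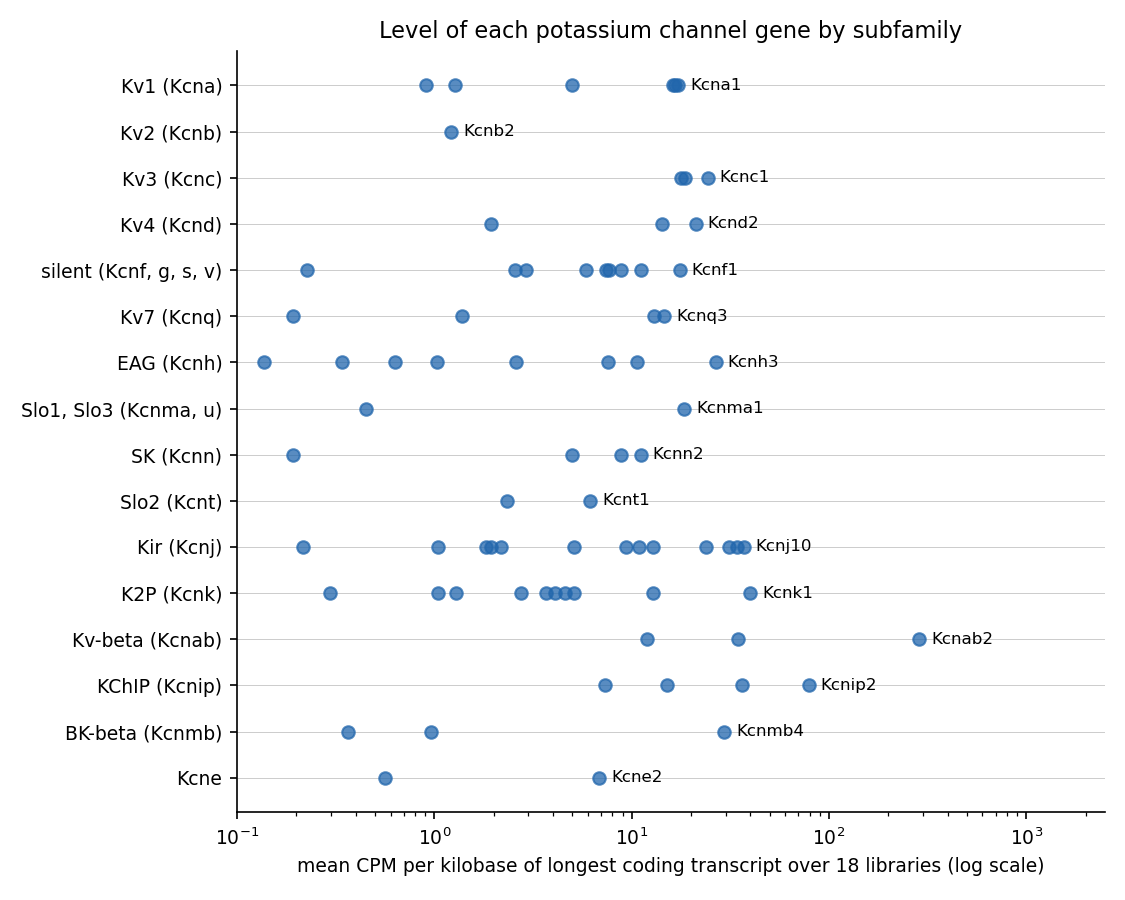
Each point is the mean level of 1 of 77 genes over 18 libraries, in CPM per kilobase of its longest coding transcript on a log scale, by subfamily, with the highest gene shown of each subfamily named. Kcnab2 lies alone at 287 CPM per kilobase while the members of most subfamilies are spread widely, from 0.138 CPM per kilobase for Kcnh8 upward.

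By summed CPM the Kv-beta subunits took 22.5% of all potassium channel counts, most of it Kcnab2, and the Kv7 subunits took 15.1%. Inward rectifiers took 11.5% and Kv3 subunits 9.89%. The smallest shares were those of the SK channels at 1.54%, the sodium-activated Slo2 channels at 0.881%, the BK beta subunits at 0.790% and the Kcne subunits at 0.232%. These shares are sums of counts, so long transcripts weigh more in them.

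The comparison of exercised with CSDS mice asks what training adds under the same stress. No potassium channel gene passed edgeR's quasi-likelihood test at a Benjamini-Hochberg adjusted p under 0.05, and neither did any of the 16738 genes tested (0.0% called). At an unadjusted p under 0.05, 17 of 80 potassium channel genes stood out, against 15.6% of all genes. Of these, 10 had a higher fitted level in exercised mice, against 8.1% of all genes, and 7 a lower one, against 7.46% of all genes. The median log2 fold change was -0.08 over the 80 genes and 0.02 over all genes, and 35 of 80 were above 0, against 53.5% of all genes. With each library's trend on GC content removed, as described below, the median of the 80 genes was 0.03 and 42 were above 0, against 51.2% of all genes.

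Among the voltage-gated subunits the A-type channel gene Kcnd2 (Kv4.2), which carries most of the dendritic A-type current of hippocampal pyramidal cells, had the smallest p. It had 111, 128 and 144 CPM (lowest, median and highest) in exercised mice, against 88.9, 96.0 and 106 CPM in CSDS mice. Every exercised mouse lay above every CSDS mouse, which no other potassium channel gene showed and 0.89% of all genes did in either direction. The log2 fold change was 0.39 ± 0.10 (SE, n = 6 each; edgeR quasi-likelihood test, adjusted p = 0.198). The other Kv4 genes had log2 fold changes of 0.11 ± 0.14 for Kcnd3 and -0.09 ± 0.16 for Kcnd1. After the removal of GC trends described below these were 0.21 and 0.00. That removal also lowered the value of Kcnd2 to close to that of Kcnd3, and Kcnd2 was then not under an unadjusted p of 0.05. Whether Kcnd3 and Kcnd1 differ from Kcnd2 was not tested.

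Kcnq3 (Kv7.3), a subunit of the M-current channel, had 170, 195 and 229 CPM in exercised mice, against 137, 163 and 175 CPM in CSDS mice. The groups overlapped only between 170 and 175 CPM. Its log2 fold change was 0.32 ± 0.08 (edgeR adjusted p = 0.198).

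Kcnb2 (Kv2.2), a delayed rectifier, had 17.5, 20.8 and 31.3 CPM in exercised mice, against 13.7, 15.9 and 20.1 CPM in CSDS mice. The groups overlapped between 17.5 and 20.1 CPM, and exercised mouse 3 was the highest. Its log2 fold change was 0.43 ± 0.14 (edgeR adjusted p = 0.206). Kcna4 (Kv1.4), the Kv1 subunit that inactivates fast, had 24.1, 26.8 and 36.6 CPM in exercised mice, against 21.0, 22.5 and 26.2 CPM in CSDS mice. With these overlapping ranges its log2 fold change was 0.30 ± 0.13 (edgeR adjusted p = 0.285). Kcnc4 (Kv3.4) lay on the other side, at 44.9, 58.5 and 81.0 CPM in exercised mice, against 52.7, 81.6 and 95.4 CPM in CSDS mice. Its ranges overlapped over most of their width, and the log2 fold change was -0.37 ± 0.15 (edgeR adjusted p = 0.270).

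The calcium-activated channels and their subunits differed in direction. Kcnma1, the pore of the BK channel, which opens with calcium and depolarization together, had 219, 244 and 298 CPM in exercised mice, against 178, 203 and 239 CPM in CSDS mice. Only the highest CSDS mouse reached into the exercised range, and the log2 fold change was 0.30 ± 0.09 (edgeR adjusted p = 0.198). Kcnmb4, the main neuronal beta subunit of the BK channel, had 28.3, 34.7 and 45.6 CPM in exercised mice, against 37.5, 43.0 and 47.3 CPM in CSDS mice, with a log2 fold change of -0.27 ± 0.11 (edgeR adjusted p = 0.271). Exercised mouse 4 was the one at 45.6 CPM, and the other 5 exercised mice lay below the lowest CSDS mouse.

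The SK channels open with calcium alone. Kcnn1 (SK1) had 12.6, 15.0 and 22.5 CPM in exercised mice, against 18.05, 21.4 and 28.1 CPM in CSDS mice, with a log2 fold change of -0.47 ± 0.14 (edgeR adjusted p = 0.198). Kcnn2 (SK2), which shapes the medium after-hyperpolarization and synaptic responses of pyramidal cells, had 32.2, 38.6 and 41.6 CPM in exercised mice, against 40.9, 45.8 and 53.5 CPM in CSDS mice, with a log2 fold change of -0.32 ± 0.12 (edgeR adjusted p = 0.243). For Kcnn1 the exercised mice 3 and 4 lay inside the CSDS range, and for Kcnn2 1 CSDS mouse lay inside the exercised range. Kcnn3 (SK3) did not follow them, with a log2 fold change of 0.17 ± 0.14 (edgeR adjusted p = 0.549). The summed SK level was 72.7, 84.4 and 86.3 CPM in exercised mice, against 84.7, 94.8 and 106 CPM in CSDS mice.

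**Figure D2:**
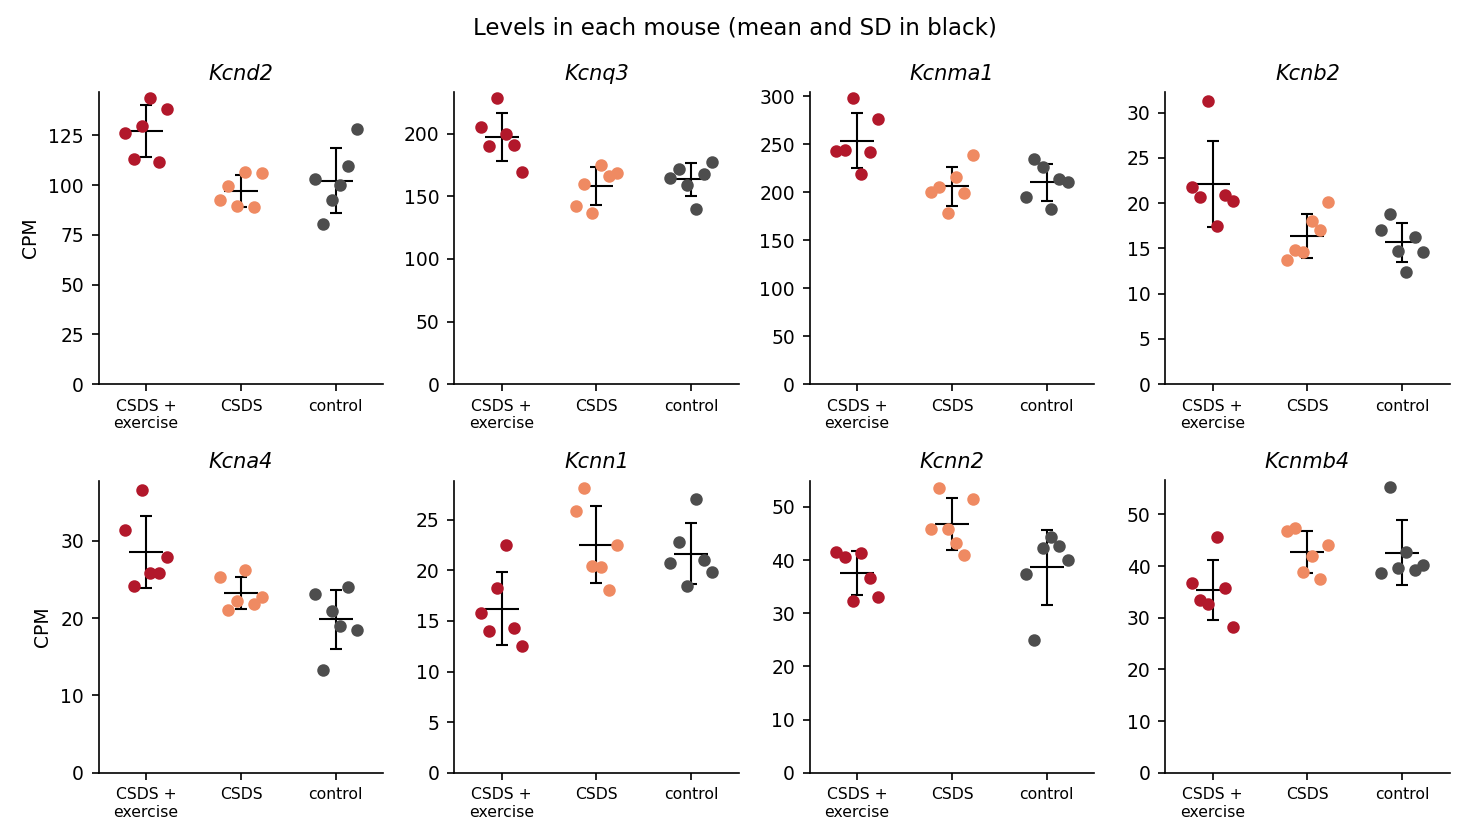
Level in CPM of 8 genes in each mouse, with exercised mice (CSDS + exercise) on the left, CSDS mice in the middle and control mice on the right; points are mice and black marks the mean and SD. Kcnd2, Kcnq3, Kcnma1, Kcnb2 and Kcna4 lie higher in exercised mice and Kcnn1, Kcnn2 and Kcnmb4 lower, with overlap between exercised and CSDS mice in every gene shown except Kcnd2.

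Among the inward rectifiers, Kcnj3, a subunit of G protein-gated channels in neurons, had 114, 141 and 162 CPM in exercised mice, against 104, 111 and 141 CPM in CSDS mice, with a log2 fold change of 0.25 ± 0.10 (edgeR adjusted p = 0.267). Kcnj14 (Kir2.4) had 1.35, 2.35 and 2.79 CPM in exercised mice, against 2.59, 3.001 and 3.42 CPM in CSDS mice, with a log2 fold change of -0.48 ± 0.18 (edgeR adjusted p = 0.237). The ranges of Kcnj3 overlapped widely, while for Kcnj14 only 1 CSDS mouse lay inside the exercised range. The largest fold change belonged to Kcnj5, another G protein-gated subunit, at 1.90 ± 0.68 on the log2 scale (edgeR adjusted p = 0.229). That value rested on exercised mouse 6, which had 7.26 CPM where no other exercised mouse passed 1.48 CPM. Without this mouse the log2 fold change of Kcnj5 was 0.60 ± 0.49. Kcnj10 (Kir4.1), the main potassium channel of astrocytes and also present in oligodendrocytes, had 152, 197 and 418 CPM in exercised mice, against 148, 171 and 191 CPM in CSDS mice. Its highest value came from the same mouse, whose oligodendrocyte list, at 10024 CPM, was also the highest of the 18 libraries. The astrocyte list of that mouse, at 5034 CPM, was the lowest of the exercised mice. The log2 fold change of Kcnj10, 0.43 ± 0.19 (edgeR adjusted p = 0.297), became 0.17 ± 0.13 without this mouse.

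Of the 2-pore channels, which give a leak current at rest, 1 of 10 had an unadjusted p under 0.05. Kcnk12, a subunit that gives little current by itself, had 4.02, 4.95 and 9.03 CPM in exercised mice, against 4.55, 9.62 and 13.3 CPM in CSDS mice, and exercised mouse 4 was the one at 9.03 CPM. Its log2 fold change was -0.77 ± 0.26 (edgeR adjusted p = 0.219). The abundant Kcnk1 differed by -0.11 ± 0.09 (edgeR adjusted p = 0.547). Among the auxiliary subunits, Kcnip4, a Kv4 partner, had a log2 fold change of 0.45 ± 0.18 (edgeR adjusted p = 0.268), against -0.28 ± 0.15 for Kcnip2 (edgeR adjusted p = 0.360). Among the electrically silent subunits, which change the gating of Kv2 channels, Kcns2 had 0.26 ± 0.11 (edgeR adjusted p = 0.288) and Kcng1 had -0.68 ± 0.33 (edgeR adjusted p = 0.319).

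Subfamily medians are given for 13 of 16 subfamilies, all but Kv2, Kv3 and Kv7. Some rest on few genes, with 2 tested in each of Kcne and Slo2 and 3 in each of Kv-beta, Kv4 and the BK beta subunits. Of the Kcne genes, Kcne2 varied widely between mice, as described below. The median log2 fold change between exercised and CSDS mice was -0.22 for the Kv-beta genes. The silent subunits had a median of -0.19, the EAG genes -0.18, the Kcne subunits -0.14, the 2-pore genes -0.09, the inward rectifiers -0.08 and the SK genes -0.08. Among these subfamilies, medians above 0 belonged to the BK beta subunits, at 0.17, the Slo2 genes, at 0.12, the Kv4 genes, at 0.11, the BK and Slo3 pair, at 0.09, the Kv1 genes, at 0.04, and the Kv4 partners, at 0.03. Each of these subfamilies had genes on both sides of 0. After the removal of GC trends the median changed sign in 4 of them: it was 0.08 for the silent subunits, 0.02 for the EAG genes, 0.02 for the inward rectifiers and -0.10 for the BK beta subunits. It was 0.21 for the Kv4 genes, all 3 of them above 0, and -0.04 for the Kv-beta genes.

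**Figure D3:**
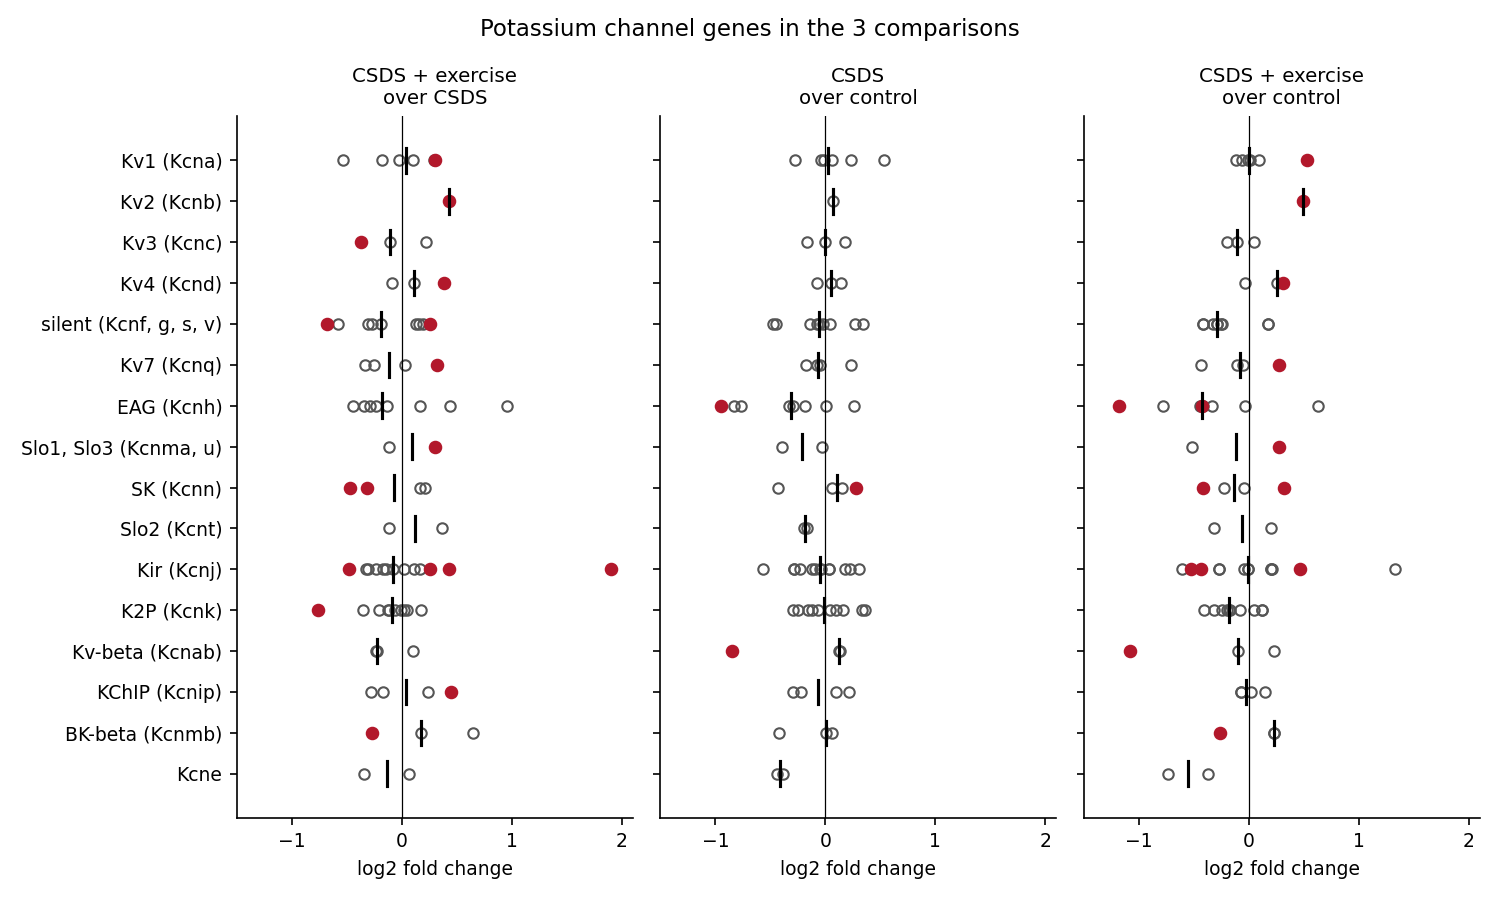
Log2 fold change of each of 77 genes by subfamily for exercised over CSDS mice, CSDS over control mice and exercised over control mice, from left to right; filled red points have an unadjusted p under 0.05, open points do not, and black bars are medians of the points shown. Red points lie on both sides of 0 within the Kir and silent subfamilies in the left panel, both red SK points lie below 0, and 3 red points are present in the middle panel.

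The fold changes of exercised over CSDS mice were ordered by the GC content of the transcripts. GC content, as the median over a gene's transcripts, ran from 39.4% in Kcnt2 to 75.6% in Kcng2. In the 27 genes with the lowest GC content 23 were higher in exercised mice, with a median log2 fold change of 0.24. In the 26 genes of the middle range 9 were higher, with a median of -0.10, and in the 27 genes with the highest GC content 3 were higher, with a median of -0.26. Over the 80 genes Pearson's r was -0.58 and Spearman's rho -0.67, as a description across genes that share the same 12 libraries. The fold changes also followed transcript length, with a Spearman's rho of 0.47. Whether length and GC content act apart from each other was not tested. Over all genes tested that had a GC value Pearson's r was -0.54, so the trend was not particular to potassium channel genes. Median GC content was 46.1% for the 10 genes on the higher side at an unadjusted p under 0.05, and 59.3% for the 7 on the lower side. Within the Kv4 partners, Kcnip4 had a GC content of 40.1% and Kcnip2 of 54.3%.

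All libraries were then compared by the slope of level on GC content over all genes, in log2 units per 10 percentage points. The slope was -0.443, -0.194 and 0.195 (lowest, median and highest) in exercised mice, against -0.153, 0.186 and 0.283 in CSDS mice and -0.092, 0.018 and 0.306 in control mice. Exercised mouse 4 was the only one of its group with a slope above 0. When each library's trend on GC content was removed, r over the 80 genes was -0.04 and the 3 medians became 0.08, -0.03 and -0.01. The step takes out the trend over all genes, so an r near 0 follows from it and tests nothing. Fitted in edgeR after this step, Kcnd2 had a log2 fold change of 0.23, Kcnq3 0.22, Kcnma1 0.23 and Kcnb2 0.22, while Kcnip4 had 0.16, Kcna4 0.15 and Kcnj3 0.08. On the lower side Kcnn2 had -0.33, Kcnn1 -0.26 and Kcnmb4 -0.30, while Kcnk12 had -0.12 and Kcnc4 -0.09. Of the 17 genes, 7 kept an unadjusted p under 0.05 (Kcnb2, Kcnj5, Kcnma1, Kcnq3, Kcnmb4, Kcnn1 and Kcnn2; Kcnd2 did not) and all 17 kept their sign. In all 9 of 80 genes were under that p, against 5.58% of all genes. The part of GC content in the group difference was not tested, since the slopes differ with the groups.

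**Figure D4:**
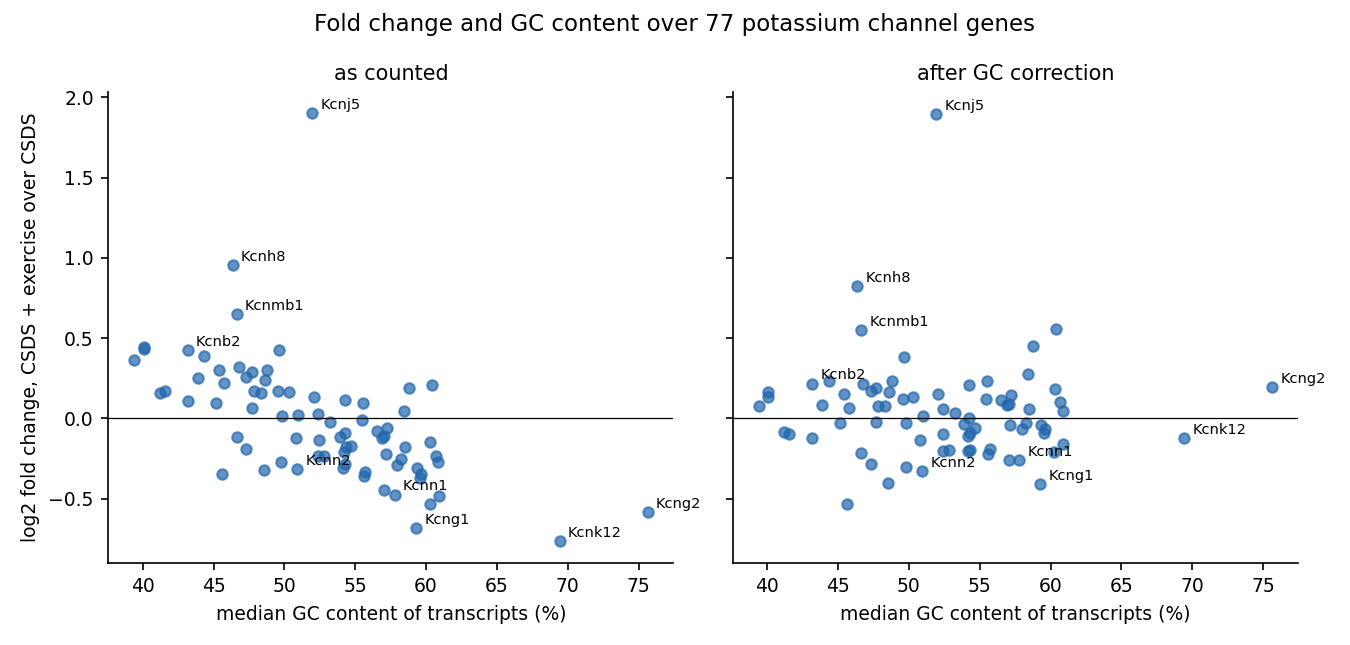
Log2 fold change of exercised over CSDS mice against the median GC content of the transcripts for 77 genes, as counted on the left and after removing each library's trend on GC content on the right. The downward trend on the left, with r of -0.58 over all 80 genes, is nearly flat on the right, with r of -0.04, because the step removes such a trend.

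The comparison of CSDS with control mice asks what the stress does by itself. No potassium channel gene and no gene at all was called (0.0%). At an unadjusted p under 0.05 there were 3 potassium channel genes, against 3.51% of all genes. Kcnn2 was on the higher side, with 1.83% of all genes, and Kcnab3 and Kcnh5 on the lower side, with 1.68%. The median log2 fold change was -0.04 over the 80 genes and 0.00 over all genes, and 35 of 80 were above 0, against 50.0% of all genes. In none of the 80 did the groups stay apart, against 0.239% of all genes. With GC trends removed 7 genes were under an unadjusted p of 0.05, 2 higher and 5 lower, against 4.04% of all genes, 286 higher and 391 lower of 16738. In that fit 28 of 80 were above 0, against 44.6% of all genes. Without control mouse 2 as well, 2 genes were under that p, 1 higher and 1 lower, against 468 of 16833 genes. There 39 of 80 were above 0, against 50.2% of all genes.

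Kcnn2 had 40.9, 45.8 and 53.5 CPM in CSDS mice, against 25.0, 41.1 and 44.2 CPM in control mice, with a log2 fold change of 0.28 ± 0.12 (edgeR adjusted p = 0.993). The value of 25.0 CPM came from control mouse 2, and without it the log2 fold change was 0.18 ± 0.09. Kcnab3, a Kv1 beta subunit, had 16.9, 25.5 and 29.7 CPM in CSDS mice, against 20.6, 27.2 and 129 CPM in control mice, with a log2 fold change of -0.85 ± 0.35 (edgeR adjusted p = 0.993). Kcnh5, an EAG channel, had 2.59, 3.17 and 3.47 CPM in CSDS mice, against 2.64, 3.60 and 18.5 CPM in control mice, with a log2 fold change of -0.95 ± 0.40 (edgeR adjusted p = 0.993). Both highest values belong to control mouse 2, the library with the high neocortical list. Without that library the log2 fold change was -0.17 ± 0.18 for Kcnab3 and -0.16 ± 0.21 for Kcnh5.

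Many other potassium channel genes showed the same library. In control mouse 2 Kcnh7 stood at 130 CPM, against 19.5 to 31.4 CPM in the other 5 control mice, and Kcnh4 at 12.3 CPM, against 1.36 to 2.97 CPM. The silent subunit Kcnv1 stood at 93.8 CPM, against 22.2 to 34.7 CPM, and the sodium-activated channel Kcnt1 at 96.4 CPM, against 23.9 to 34.0 CPM. Lower than in the other control mice were Kcnd3, at 49.8 CPM against 91.9 to 117 CPM, Kcng1, at 10.8 CPM against 34.8 to 70.7 CPM, and Kcng2, at 5.13 CPM against 20.5 to 37.7 CPM. The median log2 fold change of the EAG genes between CSDS and control mice was -0.31, and -0.06 without this library. Over the 80 genes the number above 0 was 35, and 46 without it, against 53.4% of all genes.

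Kcnj2 (Kir2.1), a strong inward rectifier that holds the resting potential, went the other way and was picked after its values were seen. It had 8.81, 12.0 and 13.8 CPM in exercised mice, 7.91, 10.3 and 13.9 CPM in CSDS mice and 5.77, 6.90 and 15.4 CPM in control mice. The value of 15.4 CPM is control mouse 2, and the other 5 control mice did not pass 8.37 CPM. The log2 fold change of CSDS over control mice was 0.31 ± 0.21, and 0.58 ± 0.16 without that library (edgeR adjusted p = 1.00, unadjusted p = 0.00170). That of exercised over control mice was 0.47 ± 0.21, and 0.74 ± 0.16 without it (edgeR adjusted p = 0.149).

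**Figure D5:**
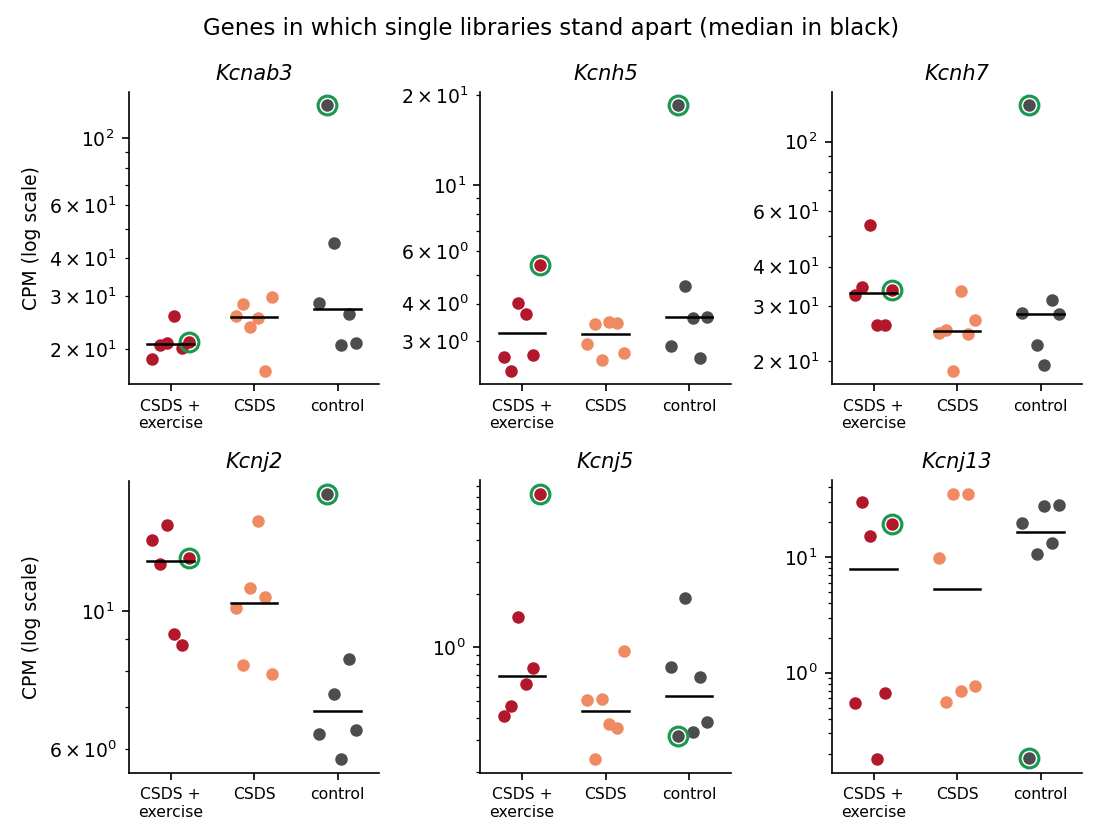
Level in CPM (log scale) of 6 genes in each mouse, with exercised mice on the left, CSDS mice in the middle and control mice on the right; black bars are medians and green rings mark exercised mouse 6 and control mouse 2. Control mouse 2 is the highest of all mice for Kcnab3, Kcnh5, Kcnh7 and Kcnj2, exercised mouse 6 for Kcnj5, and Kcnj13 falls into high and low libraries in every group.

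The comparison of exercised with control mice joins stress and training, and it shares its samples with the other comparisons. No potassium channel gene was called, against 3 of 16738 genes (0.0179%). At an unadjusted p under 0.05 there were 14 of 80, against 11.2% of all genes, with 7 on the higher side (6.8% of all genes) and 7 on the lower side (4.39%). The median log2 fold change was -0.08 over the 80 genes and 0.01 over all genes, and 27 of 80 were above 0, against 52.0% of all genes. Without control mouse 2 the median was -0.03 and 37 were above 0, against 53.4% of all genes. With GC trends removed as well, the median was 0.04 and 47 were above 0, against 51.1% of all genes. With all libraries kept and GC trends removed, 30 were above 0, against 46.8% of all genes. Of the 27 genes with the highest GC content 0 were above 0 with all libraries, and 9 were after the removal of GC trends.

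Kcna4 had the smallest p here. It had 24.1, 26.8 and 36.6 CPM in exercised mice, against 13.3, 19.99 and 23.97 CPM in control mice. The groups did not overlap, though the nearest mice lay at 24.10 and 23.97 CPM, and this held for 0.562% of all genes in either direction. The log2 fold change was 0.53 ± 0.13 (edgeR adjusted p = 0.175), and 0.44 ± 0.11 without control mouse 2.

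Kcnb2 had a log2 fold change of 0.50 ± 0.14 between exercised and control mice (edgeR adjusted p = 0.207), Kcnd2 0.31 ± 0.10 (edgeR adjusted p = 0.272), Kcnma1 0.27 ± 0.09 (edgeR adjusted p = 0.273) and Kcnq3 0.27 ± 0.08 (edgeR adjusted p = 0.259). Each of these had a fold change between CSDS and control mice no larger than its error, from -0.07 ± 0.10 for Kcnd2 to 0.07 ± 0.14 for Kcnb2. With GC trends removed, the values for exercised over control mice were 0.32 for Kcnb2, 0.19 for Kcnd2, 0.20 for Kcnma1 and 0.19 for Kcnq3, and Kcnd2 was no longer under an unadjusted p of 0.05. On the lower side Kcnn1 had -0.42 ± 0.14 (edgeR adjusted p = 0.288), Kcnj14 -0.53 ± 0.18 (edgeR adjusted p = 0.280) and Kcnmb4 -0.26 ± 0.11 (edgeR adjusted p = 0.392). Control mouse 2 had 55.2 CPM of Kcnmb4, against 38.7 to 42.7 CPM in the other control mice. Without it Kcnmb4 was no longer under an unadjusted p of 0.05 in edgeR, while Kcnn1, at -0.40, and Kcnj14, at -0.54, were. Kcnn2 stood at 32.2, 38.6 and 41.6 CPM in exercised mice, against 25.0, 41.1 and 44.2 CPM in control mice, and its log2 fold change was -0.04 ± 0.12 (edgeR adjusted p = 0.925). The 25.0 CPM was control mouse 2, which moves this value upward, and the other control mice had 37.5 to 44.2 CPM. The log2 fold changes of Kcnab3, at -1.08 ± 0.36, and Kcnh4, at -1.18 ± 0.50, became -0.41 ± 0.18 and -0.30 ± 0.34 without control mouse 2.

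Kcnj13 (Kir7.1) and Kcne2, both made by the epithelium of the choroid plexus, varied more between mice of a group than between groups. Kcnj13 had 0.178, 7.90 and 29.9 CPM in exercised mice, 0.562, 5.30 and 35.2 CPM in CSDS mice and 0.182, 16.5 and 28.3 CPM in control mice. For both genes 11 libraries lay above 8 CPM and 7 below 1 CPM, with 0 between. The high libraries were the same for both genes and came from 3 exercised, 3 CSDS and 5 control mice. Ttr, the most abundant choroid plexus transcript, was at 1657 to 7939 CPM in these 11 libraries and at 12.7 to 149 CPM in the other 7. The log2 fold change of Kcnj13 between exercised and CSDS mice was -0.32 ± 1.09.

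Genes of channel partners without a Kcn name were read beside these. Of 15 listed, 13 were tested, and 0 were called in any comparison. Between exercised and CSDS mice 9 of 13 had a higher fitted level, against 53.5% of all genes, with a median log2 fold change of 0.16. Cntnap2, which places Kv1 channels beside the node of Ranvier, had 124, 142 and 152 CPM in exercised mice, against 110, 128 and 141 CPM in CSDS mice, a log2 fold change of 0.16 ± 0.08 (edgeR adjusted p = 0.315). Lgi1, a secreted partner of Kv1 complexes, had 165, 207 and 222 CPM in exercised mice, against 157, 167 and 210 CPM in CSDS mice, a log2 fold change of 0.21 ± 0.10 (edgeR adjusted p = 0.309). The BK subunit Lrrc55 had 79.5 CPM in exercised mouse 6, against 14.3 CPM in the median exercised mouse. After removal of the GC trend the log2 fold change was 0.05 for Cntnap2 and 0.03 for Lgi1.

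The calls depended on the test and on single libraries. DESeq2 called Kcnq3 (adjusted p = 0.0413) and Kcnd2 (adjusted p = 0.0430) between exercised and CSDS mice. It was run without the filter on low counts and tested 31251 genes, of which 89 were potassium channel genes. It called 0.499% of those 31251. Limma voom with quality weights called 34 of 80, 9 higher and 25 lower, where it called 33.3% of all genes, 2578 higher and 2989 lower of 16738. Without exercised mouse 4, edgeR called Kcnn1 (adjusted p = 0.0328), Kcnk12 (adjusted p = 0.0390) and Kcnma1 (adjusted p = 0.0488), where it called 3.71% of all genes, and with the GC trend removed as well it called 0 of 80 and 0.0% of all genes. Between exercised and control mice DESeq2 called Kcna4 (adjusted p = 0.0329), among 0.349% of 31251 genes, and limma voom called Kcnj2 (adjusted p = 0.0428), among 1.09% of 16738.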

How the data were processed

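Hippocampal poly(A) RNA of 18 mice was sequenced in stranded libraries, 1 per mouse and 6 per group, with 1 batch label. The authors deposited 1 table of expected counts per gene, which are estimates, with decimals in 22.7% of the nonzero values; they were rounded to whole numbers for testing. Per the submitters' processing notes fastp, HISAT2 and RSEM were used with GRCm38 (mm10); for versions, annotation and strand setting, nothing is stated. Because RSEM splits reads among the genes they match, genes with near-identical copies or overlapping neighbours are uncertain. Symbols came from a gene name table, which matched 51884 of 57180 identifiers; unmatched ones held 0.62% of counts.

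Genes were kept with filterByExpr (minimum count 10, minimum total 15), scaled by TMM and tested with the quasi-likelihood test of edgeR 4.0.16 in R 4.3.3 on all 18 libraries with 1 term per group, with Benjamini-Hochberg adjustment over 16738 genes and a threshold of 0.05; the procedure was tested on simulated counts. SE is the log2 fold change divided by the root of F. Alternatives used DESeq2 1.42.0, limma 3.58.1, other scalings and filters, a spline on GC content (df 5) removed per library, and each library left out. GC content and lengths came from GENCODE M21, which gave values for all 92 genes. Named genes were those with the 8 smallest p per comparison, the highest level per kilobase in each subfamily and a fixed list, 32 in all; 16 others were named after their values were seen. A few genes that meet these rules are not reported here, though counts and medians over all genes include them. Members, subfamilies and lists were chosen with earlier results of these data known.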

Additional observations from a re-analysis of the deposited data

Results flagged for a closer look

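For 48 named genes the highest or lowest mouse of each group was set against the rest of its group with Dixon's test for 6 values at its 95% critical value. The test marked 29 of 144 gene and group pairs, where chance marks about 1 in 20. As 16 of the 48 genes were named after their values were seen, and the pairs share libraries, the number marked is not a test of an excess. Levels are in CPM, and the range of the other 5 mice follows each value.

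Control mouse 2 accounted for most of them. It was the highest of its group for Kcna2 at 362 (151 to 211), Kcnab3 at 129 (20.6 to 44.8) and Kcnf1 at 132 (71.7 to 90.5). It was also the highest for Kcnh4 at 12.3 (1.36 to 2.97), Kcnh5 at 18.5 (2.64 to 4.58), Kcnh7 at 130 (19.5 to 31.4) and Kcnj2 at 15.4 (5.77 to 8.37). The same holds for Kcnj9 at 254 (109 to 128), Kcnmb4 at 55.2 (38.7 to 42.7), Kcns1 at 37.2 (13.3 to 16.6), Kcnt1 at 96.4 (23.9 to 34.0) and Kcnv1 at 93.8 (22.2 to 34.7). It was the lowest for Kcnd3 at 49.8 (91.9 to 117), Kcnn2 at 25.0 (37.5 to 44.2) and Kcnn3 at 18.5 (22.4 to 24.4). Control mouse 3 was the highest for Kcnj5 at 1.89 (0.318 to 0.772).

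Exercised mouse 4 was the highest of its group for Kcnab2 at 1670 (742 to 1067), Kcnab3 at 25.8 (18.5 to 21.1) and Kcnc1 at 218 (159 to 180). It was also the highest for Kcnj6 at 53.5 (27.7 to 37.1), Kcnk1 at 99.9 (77.3 to 82.8) and Kcnk12 at 9.03 (4.02 to 5.26). Exercised mouse 3 was the highest for Kcnb2 at 31.3 (17.5 to 21.8), Kcnf1 at 118 (57.5 to 69.6) and Kcnh7 at 54.3 (26.0 to 34.5). Exercised mouse 6 was the highest for Kcnh8 at 2.37 (0.275 to 0.756), Kcnj10 at 418 (152 to 251) and Kcnj5 at 7.26 (0.412 to 1.48). CSDS mouse 4 was the highest of its group for Kcnip4 at 41.2 (26.3 to 29.6).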

How the results depend on the processing

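Between exercised and CSDS mice, edgeR with all libraries called 0 potassium channel genes and 0 of all genes. DESeq2 called 2 and 156, and limma voom with quality weights 34 and 5567. Of all genes, 2 were called with no filter on low counts, 1 with only the 2 groups compared and 1 with the GC trend removed, none of them a potassium channel gene. Leaving out 1 mouse gave 0 to 3 potassium channel genes and 0 to 625 of all genes, the high ends without exercised mouse 4; without CSDS mouse 5 there were 43 of all genes. Between CSDS and control mice DESeq2 called 1 of all genes, and every setting called 0 potassium channel genes. Between exercised and control mice, where 3 of all genes were called, DESeq2 called 1 potassium channel gene and 109 of all genes and limma voom 1 and 183. No filter, the filter at 1 CPM in 6 libraries, the replicate block, only the 2 groups compared and the GC correction, alone, with the block or without control mouse 2, called 0 of all genes; the GC correction without exercised mouse 4 called 1, and leaving out 1 mouse gave 0 to 13. The median log2 fold change of the 80 genes ran from -0.11 to -0.02, from -0.06 to 0.02 and from -0.18 to -0.03 over the mice left out, in the order of the comparisons. Mice with the same number did not deviate together (r from -0.315 to -0.0944, -0.465 to 0.0905 and -0.26 to 0.255; 0, 1 and 1 of 12 libraries correlated best with their own number), so the numbers do not pair them; with the replicate block 0 potassium channel genes were called in each comparison. Of 144 pairs of a named gene and a comparison, 57 changed sign in at least 1 of 24 settings; among the 8 genes with the smallest p in each comparison this was Kcnh4 alone, at -0.83 between CSDS and control mice, with 0.24 under limma voom and 0.05 without control mouse 2. The cause of these changes was not tested. With 6 mice a group, genes of a few CPM such as Kcnj5 and Kcnh4 carry errors that cover most differences.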
